A study of Mus musculus with 4 samples.

Results

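The angiopoietin and TIE system comprised 8 genes, chosen by gene symbol. They were the ligand genes Angpt1, Angpt2 and Angpt4, the receptor kinase genes Tek and Tie1, the phosphatase gene Ptprb, and the angiopoietin-like genes Angptl2 and Angptl4. Ptprb had 3 probes and the others 1 each, so that the 8 genes were read by 10 of the 39429 non-control probes and were 8 of 30195 gene names on the array. Cells sorted from mouse spleen were measured on 1-colour Agilent arrays. All mice carried the genotype Ackr4GFP/wt, in which 1 allele of Ackr4, an atypical chemokine receptor gene, drives green fluorescent protein (GFP). Spleens were digested with enzymes, and living CD45-negative CD31-positive cells were sorted into ACKR4-positive (GFP+) and ACKR4-negative (GFP-) cells. There were 2 independent sorts, each of the pooled spleens of 2 to 3 mice and each giving 1 array per group (n = 2 per group), so that animals were not measured singly and p-values reflect the spread between sorts.

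Angiopoietins are secreted ligands of TEK, also called TIE2, a receptor tyrosine kinase of endothelial cells that keeps resting vessels quiet and tight. ANGPT1, made largely by perivascular cells, megakaryocytes and platelets, activates TEK, whereas ANGPT2, which endothelial cells store in Weibel-Palade bodies, activates it weakly or blocks it depending on context. TIE1 is a related receptor that binds TEK, and PTPRB, or VE-PTP, removes phosphate from TEK. Angiopoietin-like proteins share the domain structure of the ligands but do not bind TEK, and ANGPTL4 inhibits lipoprotein lipase.

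The probes of Tek and Tie1 are shown because the 2 receptor genes are related and their differences are set side by side below. The sequences were taken from the scanner files. Capitals mark bases that are identical in both probes at their best ungapped alignment, read 5′ to 3′.

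Tek: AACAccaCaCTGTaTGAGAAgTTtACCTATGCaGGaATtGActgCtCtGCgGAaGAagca

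Tie1: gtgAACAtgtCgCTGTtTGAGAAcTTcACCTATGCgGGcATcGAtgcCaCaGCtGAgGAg

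The Tek probe lies at chr4:94540624-94540683 and the Tie1 probe at chr4:118144132-118144191, the positions given in the files on mm9. They shared 39 of 57 overlapping bases (68.4%), and the longest identical run was 8 bases. Every other pair of the 10 probes shared 18 to 26 bases. Exons and untranslated regions were not assigned, because an mm9 annotation was not used here.

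Levels are given as log2 signal relative to the 75th percentile of the array, so that a level of 0 equals that percentile and each step of 1 is a 2-fold difference. Levels of different probes are not comparable, because probes bind with different strength. Testing required that at least 1 group had signal well above background on both of its arrays, in over 50% of the probe's spots, which 6 of the 8 genes met. Differences are ACKR4-positive minus ACKR4-negative, with the standard error of the limma fit, and a gene was called at a limma adjusted p under 0.05 over all 17362 tested genes. Of the 6 tested genes 2 were called, Angpt1 and Angpt2, and both fell in ACKR4-positive cells. Both were tested through the ACKR4-negative arrays alone, where they are high, so their calls rest on ACKR4-positive levels not well above background. Over all tested genes 5.62% were called, 1.91% higher and 3.71% lower in ACKR4-positive cells, and the median difference was 0.04. The levels of the 2 groups did not overlap for 4 of the 6, 2 higher and 2 lower, beside 44.9% of all tested genes (23.3% higher and 21.6% lower). With the sort number as a block, 4 of the 6 were called, Tek and Angptl4 higher and the 2 ligand genes lower, where 15.3% of all tested genes were called, 6.75% higher and 8.55% lower.

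**Figure D1:**
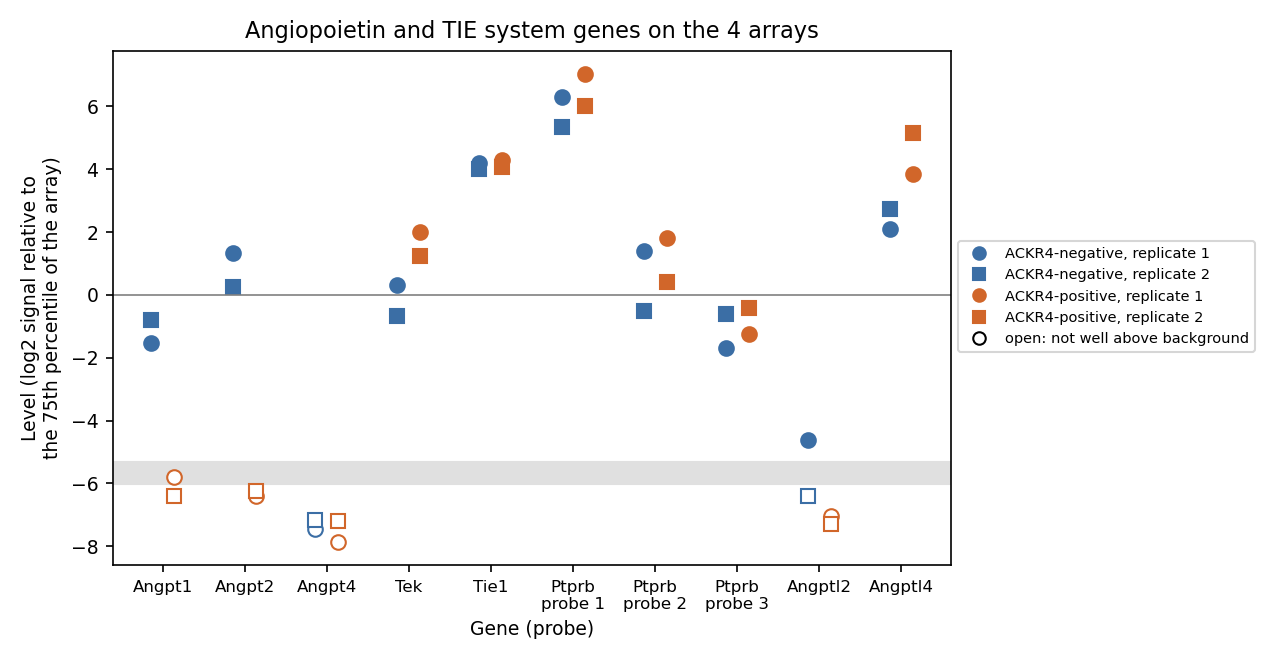
Levels of the 10 probes of the angiopoietin and TIE system on the 4 arrays, as log2 signal relative to the 75th percentile of each array. Blue marks ACKR4-negative and orange ACKR4-positive arrays, circles replicate 1 and squares replicate 2, open symbols are not well above background, and the grey band spans the lowest levels well above background on the 4 arrays (-6.03 to -5.31). Angpt1 and Angpt2 sit at -1.53 to 1.33 on the ACKR4-negative arrays and at or below -5.79 on the ACKR4-positive arrays, while the levels of Tie1 lie between 4.01 and 4.29 on all 4 arrays.

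The 4 arrays had 54.9% to 58.3% of probes well above background, and levels correlated at 0.977 to 0.982 within and 0.956 to 0.971 between groups. Median spike-in signal was 837 on ACKR4-negative replicate 1 and 2749 to 3489 on the other 3 arrays. Ackr4, whose locus drove the sort, was not well above background on either ACKR4-negative array and was at least 107-fold higher in ACKR4-positive cells (limma adjusted p = 0.0181), which checks the labels. The endothelial genes Pecam1, which encodes CD31, and Cdh5, which encodes VE-cadherin, differed by -0.15 ± 0.41 and -0.69 ± 0.33 and were not called (limma adjusted p = 0.928 and 0.447). Of 15 pan-endothelial marker genes all were tested, 3 fell (Vwf, Esam and Emcn) and 0 rose. The call of Esam was lost when any 1 array was left out, and that of Emcn without either ACKR4-negative array. The summed signal of the 15 genes, in units of the 75th percentile, was 845 and 960 on the ACKR4-negative and 715 and 979 on the ACKR4-positive arrays, a sum to which bright genes add most. The median difference of the 15 was -0.64, with 10 lower and 2 higher in both sorts.

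Signal of the activating ligand gene Angpt1 was present in ACKR4-negative cells and not well above background on either ACKR4-positive array. On the ACKR4-negative arrays it measured -1.53 (replicate 1) and -0.79 (replicate 2), and on the ACKR4-positive arrays -5.79 and -6.39. The group means were -1.16 ± 0.52 and -6.09 ± 0.43 (SD, n = 2). Both ACKR4-negative arrays lay far above both ACKR4-positive arrays. The difference was -4.93 ± 0.41 (limma adjusted p = 0.0120), with -4.26 in the first sort and -5.60 in the second. Its standard error and p-value treat ACKR4-positive signal at background as measured levels. Because the ACKR4-positive signal is only a bound, the fold between group means is stated as at least 21.0-fold lower. It takes for each dim array the higher of the gene's own level and the lowest level that counted there as well above background. It bounds the group means, not each sort, and that lowest level is no strict detection limit. On ACKR4-positive replicate 1 Angpt1 lay above it (-5.79 against -6.03) and was not well above background. Other folds stated as at least a value were taken in the same way. The probe lies at chr15:42256335-42256394. On normexp-corrected intensities, which compress dim signals, the difference was -2.38 (limma adjusted p = 0.0249). Over the 14 fits in which Angpt1 was tested it was called in all, with adjusted p from 0.00147 to 0.0322. In the authors' deposited table, whose lowest value is 15, Angpt1 stood at 521 and 869 in ACKR4-negative cells and at 27 and 18 in ACKR4-positive cells.

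Angpt2, the ligand gene of the endothelial storage granule, was likewise bright in ACKR4-negative cells and at background in ACKR4-positive cells. ACKR4-negative cells measured 1.33 and 0.26 and ACKR4-positive cells -6.39 and -6.23, the last 2 not well above background. The groups did not overlap. The difference was -7.10 ± 0.44 (limma adjusted p = 0.00776), with -7.71 in the first sort and -6.49 in the second. As for Angpt1, the standard error and p-value treat ACKR4-positive signal at background as measured levels. Stated as a bound on the group means, not on each sort, Angpt2 was at least 88.3-fold lower in ACKR4-positive cells. Its probe lies at chr8:18691458-18691517. The normexp-corrected difference was -4.30 (limma adjusted p = 0.00968), and all 14 fits with Angpt2 called it, with adjusted p from 6.50e-04 to 0.0243. The authors' deposited table gave Angpt2 3776 and 1798 in ACKR4-negative cells, and 18 and 20 in ACKR4-positive cells. With both ACKR4-positive signals of Angpt1 and Angpt2 given only as bounds, the 2 differences have no order.

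Angpt4, the remaining ligand gene, was well above background on 0 of the 4 arrays. It measured -7.45 and -7.16 for ACKR4-negative cells and -7.85 and -7.20 for ACKR4-positive cells, all of which are bounds. It was not tested, and the probe, at chr2:151770254-151770313, gives no direction. In the authors' deposited table Angpt4 was at the floor of 15 on all 4 arrays.

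Tek, the gene of the angiopoietin receptor, was higher in ACKR4-positive cells in both sorts, but the unpaired fit did not call it. Replicates 1 and 2 measured 0.31 and -0.68 without the reporter signal and 1.99 and 1.25 with it. Both ACKR4-positive levels lay above both ACKR4-negative levels. The difference was 1.81 ± 0.49, with a 95% interval of 0.51 to 3.10 (limma adjusted p = 0.155). Replicate 1 was higher than replicate 2 in both groups, so the differences within the sorts, 1.68 and 1.93, were closer than the levels. Tek was called with the sort as a block (limma adjusted p = 0.00611). Over all fits the difference ranged from 1.31 to 2.30 and the adjusted p from 0.00611 to 0.503.

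Tie1, the gene of the related receptor, had nearly the same level on all arrays. ACKR4-negative cells measured 4.19 and 4.01 and ACKR4-positive cells 4.29 and 4.07. The groups overlapped. The difference was 0.07 ± 0.28, with a 95% interval of -0.66 to 0.81 (limma adjusted p = 0.952), and the block left it uncalled (limma adjusted p = 0.846). The interval, which is not adjusted for the number of genes, still holds differences of up to 0.81. Calls are adjusted over all tested genes, so larger changes of Tie1 than that could also go uncalled with this number of arrays. The sign of so small a difference turned when ACKR4-positive replicate 1 (-0.037) or ACKR4-negative replicate 2 (-0.018) was left out.

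Tek minus Tie1, taken as the difference between their differences, was 1.59 in the first sort and 1.88 in the second, a mean of 1.73. An exact permutation test over arrays, 2-sided, gave p = 0.333, the smallest that this test can give with 2 against 2 arrays, so it could not pass the threshold. The adjusted p was 0.333 by Benjamini-Hochberg over 2 gene pairs, the other being Angpt1 and Angpt2, which is not read because both are bounds. In both sorts the difference of Tek was larger than that of Tie1, and no conclusion is drawn from this.

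Ptprb, which encodes the phosphatase that acts on TEK, was bright on all arrays and was not called by any of its 3 probes. The brightest, at chr10:115820912-115820971, measured 6.31 and 5.35 for ACKR4-negative cells and 7.03 and 6.01 for ACKR4-positive cells, and no spot was saturated. Within each sort the ACKR4-positive array was higher, by 0.72 and 0.65, but the groups overlapped. The difference was 0.69 ± 0.53, with a 95% interval of -0.72 to 2.09 (limma adjusted p = 0.683, and 0.102 with the block). Leaving out ACKR4-positive replicate 1 gave 0.18 and leaving out ACKR4-positive replicate 2 gave 1.20, neither called. The second probe of Ptprb, at chr10:115824180-115824239, measured 1.40 and -0.53 against 1.80 and 0.40, a difference of 0.66. The third, at chr10:115756725-115756784 and designed on another transcript record, measured -1.70 and -0.60 against -1.23 and -0.41, a difference of 0.33. On all 3 probes the ACKR4-positive array was the higher in both sorts. These probes read the same gene on the same arrays and are not independent. The share of all tested genes that kept their direction in both sorts is not given here. Such agreement, for this and other genes and lists, thus has no background beside it.

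**Figure D2:**
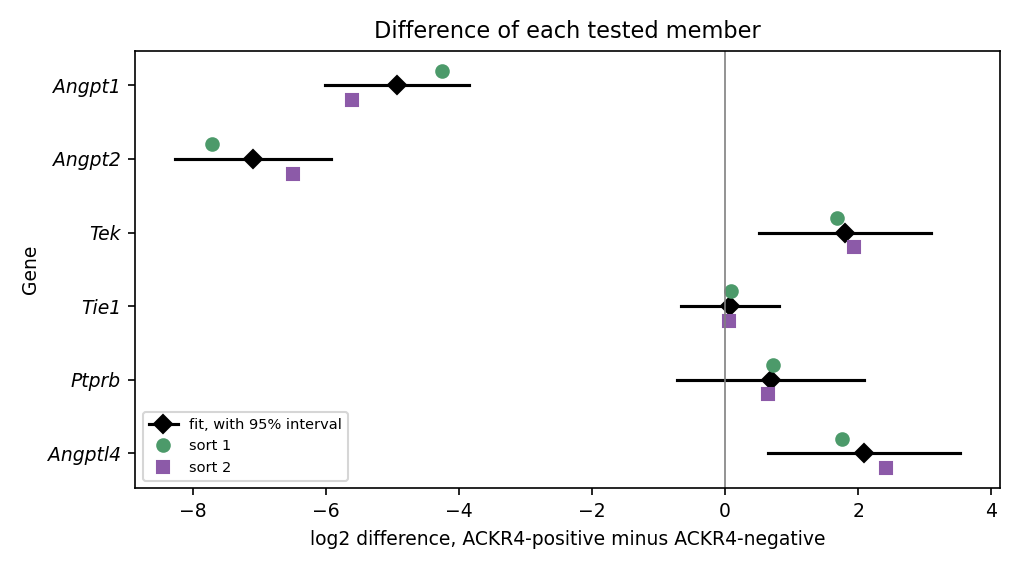
log2 difference, ACKR4-positive minus ACKR4-negative, of the 6 tested genes of the system. Black diamonds and bars are the limma fit with its 95% interval, green circles the first and purple squares the second sort. The 2 ligand genes lie at -4.93 and -7.10, measured against ACKR4-positive signals that are not well above background, Tek and Angptl4 at 1.81 and 2.09, and the intervals of Tie1 and Ptprb span 0.

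Of the angiopoietin-like genes, Angptl4, which encodes a secreted inhibitor of lipoprotein lipase, was higher in ACKR4-positive cells in both sorts, and the unpaired fit did not call it. ACKR4-negative cells measured 2.10 and 2.73 and ACKR4-positive cells 3.86 and 5.16. The groups did not overlap, and ACKR4-positive replicate 2 stood highest. The difference was 2.09 ± 0.54, with a 95% interval of 0.65 to 3.54 (limma adjusted p = 0.143). With the sort as a block Angptl4 was called (limma adjusted p = 0.00647), with 1.77 in the first and 2.42 in the second sort. Over all fits it ranged from 1.45 to 2.74, with adjusted p from 0.00647 to 0.462. Its probe lies at chr17:33911880-33911939. Angptl2, a ligand of integrins and of the receptor PIRB, was well above background on ACKR4-negative replicate 1 alone. Its levels, -4.62 and -6.40 against -7.03 and -7.29 in ACKR4-positive cells, were not tested. Its probe lies at chr2:33102102-33102159. Of 5 further angiopoietin-like genes, Angptl6 and Angptl8 were tested and neither was called (limma adjusted p = 0.317 for Angptl6, at 1.10 ± 0.42). Angptl6 was called with that block (limma adjusted p = 0.0271).

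**Figure D3:**
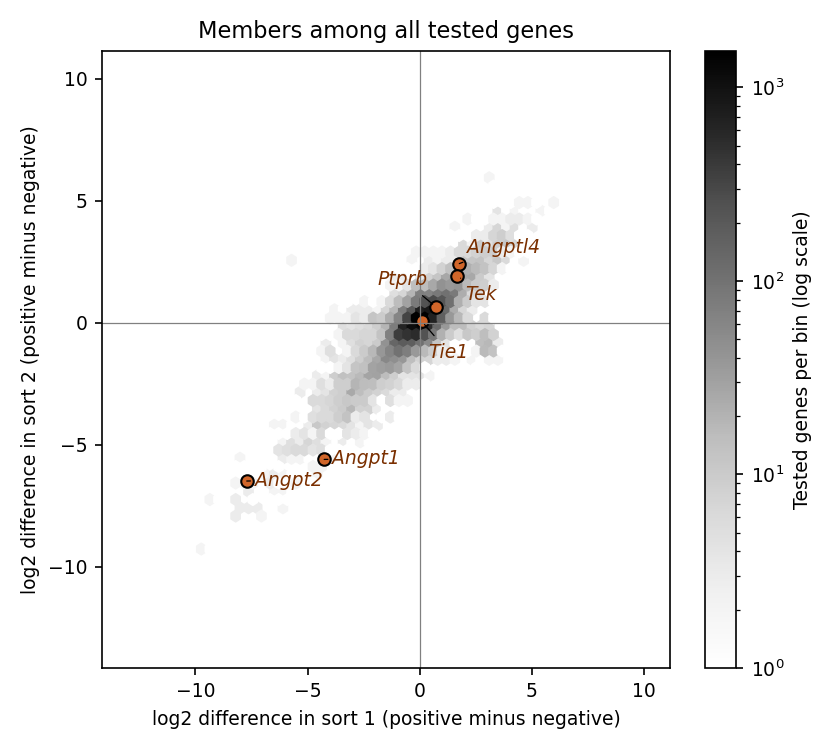
log2 differences of all 17362 tested genes in the first sort (horizontal) and the second sort (vertical), as hexagonal bins shaded by the number of genes on a log scale, with the 6 tested genes of the system as orange points. Tie1 (0.09 and 0.05) lies at the centre, Angpt1 (-4.26 and -5.60) and Angpt2 (-7.71 and -6.49) in the lower left, and Angptl4 (1.77 and 2.42) and Tek (1.68 and 1.93) in the upper right.

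Markers of mural cells and of megakaryocytes and platelets, other sources of ANGPT1, were also lower in ACKR4-positive cells. The gate took CD31-positive CD45-negative cells, and mural cells as such lack CD31. Of 13 tested mural cell genes, which mark pericytes and smooth muscle, 4 fell (Kcnj8, Abcc9, Myh11 and Cspg4) and all 13 were lower in both sorts, with a median difference of -3.57 (-3.37 with genes at background in ACKR4-positive cells set to their bounds). The call of Myh11 was lost without ACKR4-negative or ACKR4-positive replicate 1, and that of Cspg4 without any 1 of the arrays. Their summed signal was 87.4 and 125 on the ACKR4-negative and 18.5 and 11.2 on the ACKR4-positive arrays, and Cnn1, Myh11 and Ndufa4l2 were not well above background on either ACKR4-positive array. Of 17 megakaryocyte and platelet genes 13 fell, with a median of -7.24 (-6.30 with bounds) and summed signals of 129 and 285 against 5.32 and 7.52. Itga2b, Gp5, Gp6 and Tubb1 of that list were not well above background on either ACKR4-positive array. Of 11 fibroblastic reticular genes 1 fell (Pi16), 7 were lower and 2 higher in both sorts, and the summed signals were 19.5 and 23.0 against 8.56 and 10.0. The 2 higher ones, the matrix genes Dcn at 2.37 and Col3a1 at 1.71, were called only with the sort as a block (limma adjusted p = 0.0162 and 0.0326). Of 8 erythroid genes 3 fell (Epor, Gata1 and Car2), with sums of 385 and 29.2 against 17.6 and 60.6. The call of Car2 was lost without ACKR4-positive replicate 1. Of 8 lymphocyte genes 1 fell (Lck), a call lost without any 1 of the arrays, and of 9 macrophage genes 0 were called in the limma fit, the one with the smallest p being Marco at -1.43 ± 0.35 (limma adjusted p = 0.124). In the block fit 11 mural, 16 megakaryocyte and platelet, 5 fibroblastic reticular, 4 erythroid, 3 macrophage, 1 lymphocyte and 5 pan-endothelial genes were lower, and the 2 fibroblastic reticular genes were the only ones of these lists called higher. Other settings also ended calls, those of Lck and Cspg4 with either other filter, of Cspg4 and Myh11 with normexp, of Cspg4 and Emcn with median centring, of Emcn with quantile normalization and the stricter filter, and of Cspg4 with a trended prior. The part of these cells in the lower signal of Angpt1 and Angpt2 was not tested. In bulk samples, fewer cells of a type and less RNA per cell cannot be told apart.

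**Figure D4:**
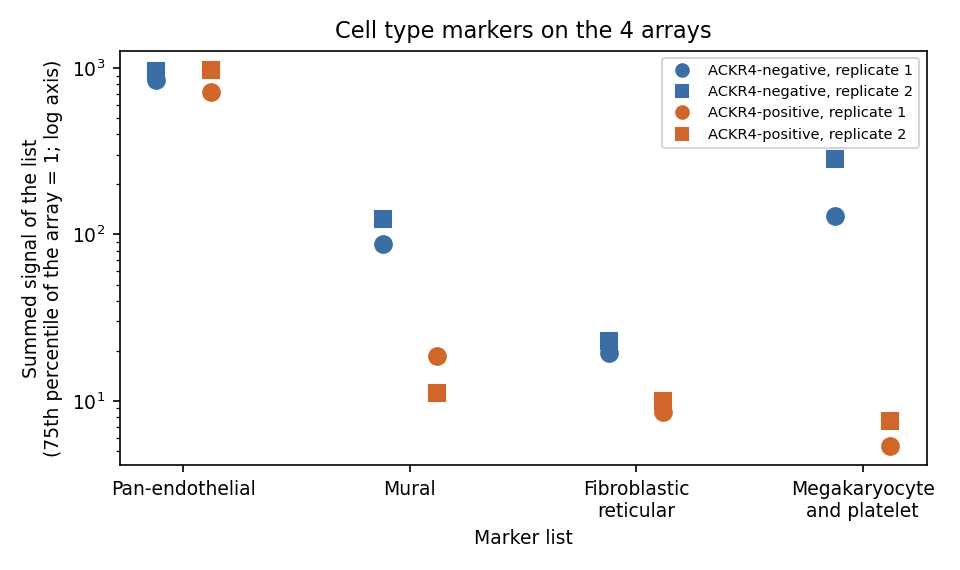
Summed signal of the tested genes of 4 cell type marker lists on each array, in units of the 75th percentile of the array, on a log axis. Blue marks ACKR4-negative and orange ACKR4-positive arrays, circles replicate 1 and squares replicate 2. Megakaryocyte and platelet genes sum to 129 and 285 against 5.32 and 7.52 and mural genes to 87.4 and 125 against 18.5 and 11.2, while the pan-endothelial sums of the groups overlap.

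Genes around the system were read in 9 lists. Over these lists 120 different genes were tested, of which 5 rose and 16 fell, beside 5.62% called over all genes (1.91% higher and 3.71% lower). The lists were chosen with earlier results of these data known, so no excess of calls is read from the counts. Leaving out 1 array lowered the count of 21 to between 7 (without ACKR4-negative replicate 1) and 12 (without ACKR4-positive replicate 2), with 9 without either of the other 2 arrays. With the sort as a block it was 38, with 12 risen and 26 fallen. Some genes stand in several lists. Kdr is in 2, and Vwf and Itgb3 are also in marker lists.

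Of 23 tested genes that act downstream of TEK and TIE1, 1 rose and 0 fell, with a median of -0.01. The one that rose was Grb14, an adaptor that binds activated receptor kinases, with levels of -2.91 and -1.94 against 0.00 and 0.50 in ACKR4-positive cells. Its difference was 2.67 ± 0.45 (limma adjusted p = 0.0474). This call was lost when any 1 array was left out (2.19 to 3.16, limma adjusted p = 0.0587 to 0.151), as well as under quantile normalization, without a filter and under the stricter filter. Foxo1, the transcription factor that TEK signalling holds out of the nucleus, differed by -0.85, Akt1, the kinase between them, by -0.31, and Nos3, the endothelial nitric oxide synthase, by 0.11, and none of them was called.

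Among 15 tested cofactors of TEK and partners of PTPRB, 0 rose and 2 fell, with a median of -0.37. Itgb5, an integrin subunit, measured 3.96 and 4.02 against 2.11 and 1.71 in ACKR4-positive cells, with a difference of -2.08 ± 0.29 (limma adjusted p = 0.0315). Kdr, the VEGF receptor that PTPRB also dephosphorylates, measured 6.74 and 5.99 against 4.06 and 3.26, a difference of -2.71 ± 0.44 (limma adjusted p = 0.0459). Both calls were lost when any 1 array was left out, with adjusted p of 0.0708 to 0.159 for Itgb5 and 0.0625 to 0.161 for Kdr. The call of Kdr was also lost with quantile normalization, median centring, the mean of probes and either other filter. In the block fit 1 gene of this list rose and 4 fell.

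Of 18 FOXO target genes, the list closest to nuclear FOXO1, 1 rose and 2 fell, with a median of -0.21. With the sort as a block 2 rose and 3 fell. Esm1, an endothelial proteoglycan gene, measured 7.39 and 7.78 against -4.06 and -2.86 in ACKR4-positive cells. Its difference was -11.05 ± 0.49 (limma adjusted p = 0.00638), and it was called without each array in turn. Pdgfb, the ligand gene that recruits pericytes, differed by -2.11 ± 0.36 (limma adjusted p = 0.0495) and Bcl6, a transcriptional repressor gene, by 2.49 ± 0.36 (limma adjusted p = 0.0338). The last 2 calls held without ACKR4-positive replicate 2 (limma adjusted p = 0.0469 and 0.0358) and were lost without any 1 of the other arrays, with adjusted p up to 0.203 for Pdgfb and 0.139 for Bcl6. That of Pdgfb was also lost with the mean of probes and either other filter. Without ACKR4-negative replicate 1 or 2, Esm1 was the 1 gene of the list still called.

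Weibel-Palade bodies are the granules in which endothelial cells store von Willebrand factor, P-selectin and ANGPT2. Of 16 tested genes of these granules 0 rose and 6 fell, and the median was -0.80 beside 0.04 over all genes. With the sort as a block 1 rose and 7 fell. Vwf, the granule's main cargo, measured 3.33 and 4.14 against -3.13 and -2.63 in ACKR4-positive cells, with a difference of -6.61 ± 0.41 (limma adjusted p = 0.00776). Edn1, the endothelin gene, measured 1.98 and 1.20 against -2.87 and -3.21, a difference of -4.63 ± 0.38 (limma adjusted p = 0.0119). Plat, the tissue plasminogen activator gene, was not well above background on either ACKR4-positive array and was at least 14.2-fold lower (limma adjusted p = 0.00930). Selp, the P-selectin gene, differed by -3.36 ± 0.32 (limma adjusted p = 0.0143). The groups of these 4 genes did not overlap, which adds no support, because they were picked for the smallest p of the list. Of all tested genes 44.9% did not overlap. Other members of the list stayed near 0, such as the granule GTPase gene Rab3d at -0.01 and Igfbp7 at 0.01, and Cd63, a membrane protein of the granule, was at -0.78 and not called. Without ACKR4-negative replicate 1 the count was 3 and without ACKR4-positive replicate 1 it was 4, and Selp was not called without either ACKR4-negative array (limma adjusted p = 0.0562 and 0.0524). Vwf and Selp are also expressed by megakaryocytes and platelets, whose markers moved in the same direction as given above, and their part in these values was not tested.

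**Figure D5:**
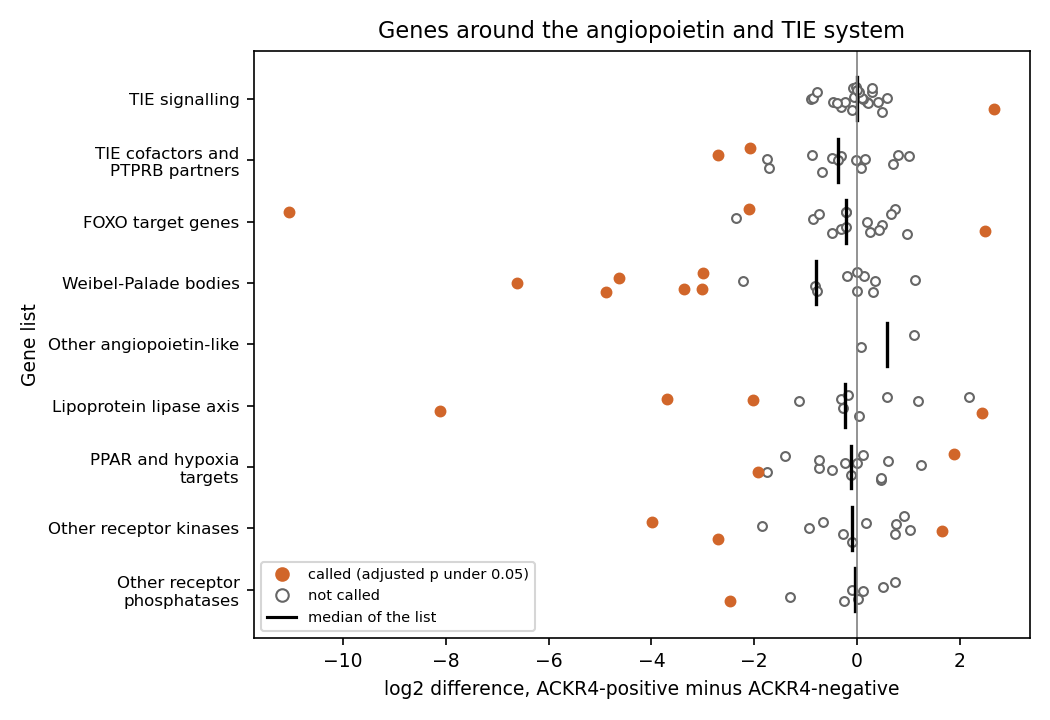
log2 difference, ACKR4-positive minus ACKR4-negative, of every tested gene in 9 lists around the angiopoietin and TIE system. Each point is a gene, filled where called at a limma adjusted p under 0.05, vertical offsets only separate points, and black lines mark list medians. The TIE signalling genes cluster near 0 (median -0.01), and the Weibel-Palade body list has 6 called genes, all lower.

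The lipoprotein lipase axis, on which ANGPTL4 acts, held 12 tested genes, of which 1 rose and 3 fell, with a median of -0.23. Gpihbp1, which carries lipoprotein lipase to the capillary lumen, measured 8.12 and 8.22 against -0.22 and 0.34 in ACKR4-positive cells. Its difference was -8.11 ± 0.32 (limma adjusted p = 0.00638). Lpl itself differed by 0.05 and was not called. Pcsk6, a proprotein convertase gene, was at least 5.01-fold lower (limma adjusted p = 0.0103), and Cd36, a fatty acid receptor gene, differed by -2.03 ± 0.31 (limma adjusted p = 0.0395). Vldlr, a lipoprotein receptor gene that was not well above background on either ACKR4-negative array, was at least 2.35-fold higher (limma adjusted p = 0.0423). The calls of Cd36 and Vldlr were lost without any 1 of the arrays, with adjusted p up to 0.195 and 0.166, as well as with quantile normalization and without a filter. That of Cd36 was also lost under the stricter filter, that of Vldlr with normexp and with a trended prior, and that of Pcsk6 with normexp. In the block fit 3 genes rose and 4 fell.

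Of 15 tested genes of PPAR signalling and hypoxia, pathways known to induce Angptl4, 1 rose and 1 fell, with a median of -0.12. Ndrg1, a hypoxia target gene, measured 2.84 and 3.05 against 4.74 and 4.93 in ACKR4-positive cells, with a difference of 1.89 ± 0.28 (limma adjusted p = 0.0352). Pparg, a nuclear receptor gene, differed by -1.93 ± 0.29 (limma adjusted p = 0.0379). Both calls were lost without any 1 of the arrays, with adjusted p up to 0.216 and 0.223, and without a filter on dim probes. The block fit called 2 genes higher and 3 lower.

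Receptors of the same classes as TEK and PTPRB were read for comparison. Of 13 other endothelial receptor kinase genes 1 rose and 2 fell, with a median of -0.10. Igf1r, the receptor gene for insulin-like growth factor, differed by -4.00 ± 0.38 (limma adjusted p = 0.0143) and Fgfr1, a fibroblast growth factor receptor gene, by 1.65 ± 0.28 (limma adjusted p = 0.0495), and the other that fell was Kdr. Igf1r was called without each array in turn. The call of Fgfr1 was lost without any 1 of the arrays, with the mean of probes and with either other filter. Of 8 tested receptor phosphatase genes besides Ptprb, 0 rose and 1 fell (Ptprr, -2.47 ± 0.38, limma adjusted p = 0.0386), with a median of -0.04, and that call held without ACKR4-positive replicate 2 and in no other fit with 1 array left out. With the sort as a block, 1 kinase gene rose and 4 fell, and 2 phosphatase genes fell.

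For each tested member the 3 genes with the most similar pattern were found by the Euclidean distance between mean-centred levels over the 4 arrays. With 4 arrays many genes share any such pattern, and the distances are descriptive. For Angpt1 and Angpt2 they rest partly on ACKR4-positive levels that are not well above background, so the order of their neighbours is not read. Nearest to Angpt1 were Fut4 (distance 0.14), Rab27b (0.32) and Cytl1 (0.37). Nearest to Angpt2 were Tubb1 (0.27), Hlx (0.30) and Aqp1 (0.55). Tubb1, a tubulin gene of the megakaryocyte and platelet list, was at least 54.5-fold lower in ACKR4-positive cells (limma adjusted p = 0.00686). Hlx and Aqp1 differed by -6.94 and -7.28 (limma adjusted p = 0.00686 and 0.00680). A link of Angpt2 to a cell type through these neighbours was not tested. Nearest to Tek were Sorbs2 (0.21), Pdxp (0.27) and Pcdhga1 (0.31). Nearest to Tie1 were Pacs2 (0.025), Krtap5-5 (0.049) and Kctd13 (0.050), and nearest to Ptprb were Syne2 (0.046), Limch1 (0.091) and Rock2 (0.12). Angptl4 lay nearest to 3 angiogenin genes, Ang4 (0.19), Ang (0.29) and Ang3 (0.30), which encode secreted ribonucleases and, despite the name, are no relatives of the angiopoietins. They differed by 2.05 ± 0.52, 1.91 ± 0.58 and 2.12 ± 0.61 and were not called (limma adjusted p = 0.138, 0.206 and 0.181), and as close paralogs they may share signal on these probes.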

How the data were processed

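RNA of 4 sorted cell samples, amplified from 6 to 20 ng per the labels' protocols, was measured on 1-colour arrays, all on 1 slide and in 1 scan per the file headers. Per the submitters' processing notes, the authors read spot intensities in Agilent Feature Extraction, version 10.7.3.1. Per the file headers these deposited intensities are background-subtracted, detrended and unscaled between arrays. The authors' deposited table of processed intensities, with 75th percentiles of 1498 to 1506 and a floor of 15, was an alternative. Its log2 values above the floor correlated with the scanner files at 1.00, and 32.4% to 34.5% of all values sat at 15.

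Flagged spots (1.91% to 1.96% per array) were left out, the log2 signals of a probe averaged and the array's 75th percentile subtracted. The brightest tested probe stood for a gene. Groups were compared by limma 3.58.1 (lmFit, eBayes, 2-sided, Benjamini-Hochberg) in R 4.3.3, and the code was tested on simulated data. Figures used Python 3.11.15 and matplotlib 3.10.9. Probes took current names through a RefSeq gene table (27508 by accession, 3544 by symbol, 167 through another probe), and 8210 kept the file's name. The number of arrays limits the precision.

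The titles give both arrays of a sort the same mouse number, which pairs them, and their deviations from the group means correlated at 0.605. The fit without that block is primary, because the labels state no design with a block. It leaves this pairing out, and whether Tek and Angptl4 are called depends on that choice. Alternatives covered background, normalization, filters, probe choice, outlier spots, the variance prior, the block and leaving out each array.

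The members and lists were chosen with earlier results of these data known. Named genes are all members, Ackr4, Pecam1 and Cdh5, every called gene of a list with 5 or fewer calls, otherwise the 4 with the smallest p, the 1 with the smallest p where none was called, and the 3 nearest genes of each member. Other genes named with values (Foxo1, Akt1, Nos3, Rab3d, Igfbp7, Cd63, Lpl, Dcn and Col3a1) were chosen after their values were seen.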

Additional observations from a re-analysis of the deposited data

How the results depend on the processing

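Angpt1 and Angpt2 were called in each of the 14 fits that tested them, the primary one included, and Tie1 and Ptprb in none of 15. With the sort number as a replicate block, 2656 genes in all, 4 members and 38 genes of the 9 lists were called, against 976, 2 and 21 without it, and Tek (1.81, limma adjusted p = 0.00611) and Angptl4 (2.09, limma adjusted p = 0.00647) passed. No call of a member was lost with the block. The stricter filter, which asks for signal on all 4 arrays, called 441 genes in all, 13 of the lists and 0 members, because Angpt1 and Angpt2 are then not tested. Under the main filter both genes passed through the ACKR4-negative arrays alone. The 14 fits share the same arrays and are not independent of each other. Leaving out each array in turn called 387 to 892 genes in all, 7 to 12 of the lists and 2 members each time. A lone array is then assumed to vary like the other group. Those fits turned the sign of small, uncalled differences, which ranged from -0.037 to 0.19 for Tie1, -0.55 to 0.24 for Pecam1, -0.015 to 0.17 for Pacs2, -0.067 to 0.22 for Krtap5-5 and -0.090 to 0.17 for Kctd13. The mean of a gene's probes gave -0.50 for Krtap5-5. The causes were not tested. Of single genes named beside the members, 656 values kept their direction and side of the threshold, 95 lost and 8 gained a call, and 9 turned sign. Without a filter, Angpt4 differed by -0.22 and Angptl2 by -1.64, both uncalled (limma adjusted p = 0.972 and 0.457).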

Other observations

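Of the 8 members, 4 have an entry in the RefSeq promoter table (GRCm38.p6). The 250 bases before their start were searched on both strands, with no overlap between the motifs counted. The forkhead motif GTAAACA was found in 0 of the 4 (3.2% of 32851 promoters hold it), AGATAA, read by GATA factors, in 0 (10.0%), and the hypoxia response core ACGTG in 0 (16.6%). The ETS motif in the form GGAAG (64.1%) occurred 6 times for Tie1, 4 times for Angpt4, 2 times for Angptl2 and 0 times for Tek. Shorter and other forms of the ETS motif were not counted. These matches are descriptions of sequence.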
